A study of Danio rerio with 61 samples.

Results

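The zebrafish mitochondrial genome carries 37 genes, of which 13 encode proteins, 2 encode the mitochondrial rRNAs and 22 encode tRNAs. All 37 were found among the 32520 genes of the deposited count table, as the rows whose symbol begins with mt- or NC_002333, and all 37 also passed the low-count filter of 1 CPM (counts scaled to a common library total) in at least 1 library, which left 16890 genes to test. The counts come from 61 libraries, each made from the total RNA of 1 ventricle of 1 adult wild-type fish, with no pooling of fish. The strains were AB, KCL (Kings College London), NA (Nadia), SAT (Sanger AB Tübingen), TL (Tupfel long fin), TU (Tübingen) and WIK (Wild India Kolkata). Ventricles were taken uninjured (n = 21 fish), or 1 day (1 dpci, n = 19) or 7 days (7 dpci, n = 21) after cryo-injury, in which a copper probe chilled in liquid nitrogen was held to the tip of the ventricle. Every strain had 3 fish per stage, except SAT and TU with 2 fish at 1 dpci, and the injury is a lesion in otherwise unmodified animals.

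Mitochondrial DNA is transcribed from both strands into long precursors, and the tRNAs that lie between most of the genes are cut out to release the mRNAs and rRNAs. The 13 proteins are all core subunits of oxidative phosphorylation (OXPHOS), and they are made on mitochondrial ribosomes that use the 12S and 16S rRNAs. Complexes I, III, IV and V also contain subunits that are encoded in the nucleus, whereas complex II is encoded in the nucleus alone. Cardiomyocytes are rich in mitochondria, and several of these genes are among the most highly expressed in the heart.

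In 6 libraries, 2 each at uninjured, 1 dpci and 7 dpci, the stage in the time label contradicted the one in the sample title, which was followed. Over 16853 nuclear genes, uninjured AB, KCL, SAT, TL and WIK were each nearest to their own strain at 7 dpci (Pearson r of the strains' deviations from the mean of all strains, 0.32 to 0.51), but uninjured NA was nearest to TU (0.51, against -0.11 with NA) and uninjured TU was nearest to NA (0.49, against -0.22 with TU). Over the 30 mitochondrial genes named below, uninjured TU was again nearest to NA at 7 dpci (0.82, against -0.60) and uninjured NA to TU (0.41, against -0.31), while SAT and WIK also lay nearer to another strain (SAT to NA, 0.59 against 0.37, and WIK to TU, 0.66 against 0.48). These correlations run across genes of the same libraries and are descriptions. Changes from uninjured to injured within NA and TU can therefore not be told apart from a mix-up of strains, and the counts of mitochondrial genes called are also given without these strains, except for the comparison of NA with SAT. Total counts per library ranged from 3317954 to 5293394 in uninjured ventricles, from 2943684 to 5538019 at 1 dpci and from 3012597 to 4711279 at 7 dpci, with medians of 4114558, 3683461 and 3791243.

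The 37 genes together held 64.2% of all counts in the series. The protein genes held 8.48%, the rRNA genes 55.6% and the tRNA genes 0.170%. Reads were primed at runs of A, as in 3′ mRNA libraries generally, so a count is a read from near a priming site, of which several may come from 1 molecule, and it does not grow with gene length, and levels of different genes are compared here as shares of counts only. Of the rRNA counts, 99.1% belonged to 16S rRNA (NC_002333.4, ENSDARG00000080337, GRCz11 chromosome MT, 2043 to 3725, plus strand), the RNA of the large ribosomal subunit. The 12S rRNA of the small subunit (NC_002333.17, ENSDARG00000082753, MT 1020 to 1971, plus strand) held 0.859%.

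Among the protein genes, mt-co3 (MT 9735 to 10520) held the largest share of protein counts with 18.9%, followed by mt-atp6 (MT 9052 to 9735) with 17.2%, mt-co2 (MT 8130 to 8820) with 15.2%, mt-co1 (MT 6425 to 7975) with 14.5% and mt-cyb (MT 15308 to 16448) with 14.2%. The cytochrome c oxidase subunits of complex IV, co1 to co3, thus stood beside the proton channel subunit of complex V and the cytochrome b of complex III. The complex I subunits were lower, with 6.94% for mt-nd4 (MT 11299 to 12679), 4.69% for mt-nd2 (MT 4993 to 6039), 3.80% for mt-nd1 (MT 3803 to 4777), 3.04% for mt-nd3 (MT 10590 to 10940) and 0.780% for mt-nd5 (MT 12897 to 14717). The lowest shares belonged to mt-atp8 (MT 8894 to 9058) with 0.544%, mt-nd4l (MT 11009 to 11305) with 0.177% and mt-nd6 (MT 14714 to 15232), the only protein gene on the minus strand, with 0.0497%. Genes atp8 and atp6, nd4l and nd4, and nd5 and nd6 overlap, and mRNAs of the first 2 pairs are known from vertebrates to be shared. How the counting used strand and overlaps is not given in the sources used here, so the split of counts within these pairs is uncertain.

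The tRNA counts were as uneven. The gene of tRNA-Asp (NC_002333.24, trnD, MT 8049 to 8117), which lies just before mt-co2, held 85.1% of them, and the gene of tRNA-Phe (NC_002333.23, trnF, MT 951 to 1019), which lies just before 12S rRNA, held 3.25%. A total of 7 tRNA genes averaged under 10 counts per library and are only counted below, which leaves 15 tRNA genes that are named. Counts of a tRNA gene here may belong to uncut precursors or to neighbouring transcripts, which was not tested.

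The first question was how much of each library the mitochondrial genes filled over the course of the injury. In uninjured ventricles the rRNA genes filled 41.3% of all counts in the lowest fish, 62.1% in the median fish and 69.8% in the highest. At 1 dpci these values were 31.6%, 52.6% and 61.9%, and at 7 dpci they were 33.8%, 58.6% and 64.7%. All fish at 1 dpci were below all uninjured fish of the same strain in AB, KCL, NA, SAT, TL and WIK, whereas the ranges overlapped in TU. Averaged over strains, the rRNA share changed by -0.33 on the log2 scale at 1 dpci and by -0.11 at 7 dpci against uninjured, with an SD of 0.15 between fish of a group.

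The share of the 13 protein genes did not follow that of the rRNA. It ran from 5.64% over a median of 7.44% to 13.7% in uninjured ventricles, from 5.54% over 8.12% to 12.5% at 1 dpci and from 5.02% over 8.11% to 19.9% at 7 dpci. At 1 dpci the 7 strains changed by 0.00 on average (log2, SD between fish 0.24), with all fish lower in TL and TU, all fish higher in NA and overlapping ranges in the other strains. As a share of counts outside the rRNA genes, however, the protein genes changed by -0.38 at 1 dpci, from a median of 20.4% to 15.95%, because the rRNA share moves the denominator of the first measure. The tRNA genes took 0.0945% to 0.353% of all counts in uninjured ventricles, 0.0408% to 0.248% at 1 dpci and 0.0879% to 0.244% at 7 dpci, and the ranges at 1 dpci overlapped those of uninjured fish in all 7 strains.

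**Figure D1:**
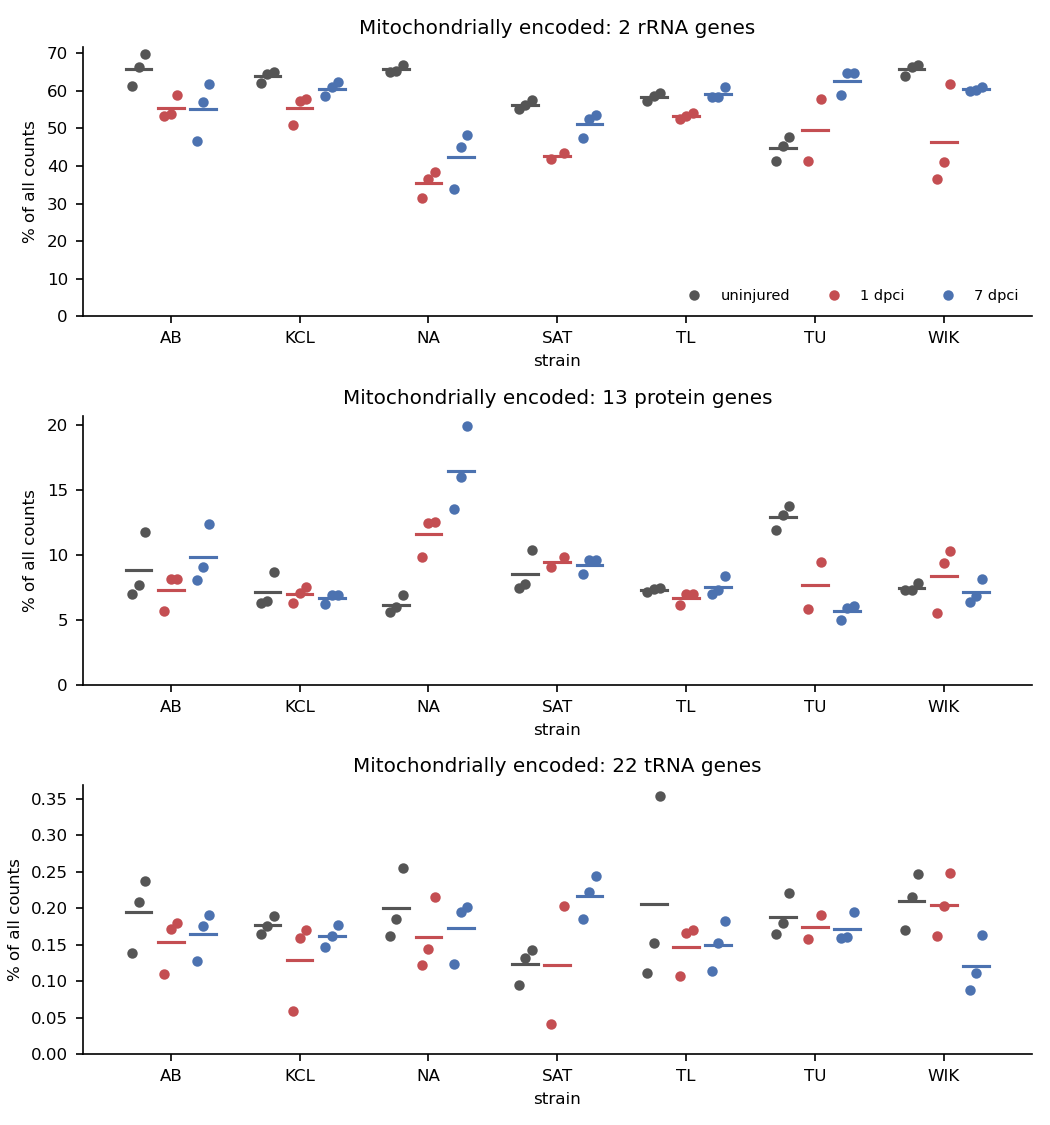
Share of all counts per library (percent, linear axes) taken by the 2 rRNA, 13 protein and 22 tRNA genes of the mitochondrial genome, by strain and stage, where each point is 1 fish and each bar is the mean of its group. The rRNA share was lower at 1 dpci than in uninjured fish in 6 strains, without overlap, and NA at 7 dpci reached the highest protein share, 19.9%.

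Strains differed widely in these shares. In NA the rRNA share was 65.1%, 65.4% and 66.99% in the 3 uninjured fish, 31.6%, 36.5% and 38.3% at 1 dpci and 33.8%, 44.9% and 48.4% at 7 dpci. TU went the other way, from 41.3%, 45.3% and 47.6% in uninjured fish to 58.8%, 64.7% and 64.7% at 7 dpci. The protein share went the opposite way, with 5.64%, 6.02% and 6.89% in uninjured NA and 13.5%, 15.95% and 19.9% at 7 dpci, while TU had 11.9%, 13.1% and 13.7% uninjured and 5.02%, 5.89% and 6.07% at 7 dpci. These are the strains whose uninjured fish lay nearest to the other strain, and in the other 5 strains the group means of the protein share lay between 6.70% and 9.86%.

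Gene by gene, the comparison of 1 dpci with uninjured ventricles was made on counts scaled by the trimmed mean of M values (TMM), with the edgeR quasi-likelihood test, the mean over the 7 strains, and Benjamini-Hochberg adjustment over the 16890 genes. Of the 37 mitochondrial genes 32 fell and none rose (adjusted p under 0.05), where over all genes tested 12.1% fell, 16.2% rose and 28.3% changed in either direction. The 32 were all 13 protein genes, 12S rRNA and 18 tRNA genes. Their directions are relative to the typical gene: the median log2 fold change of all genes was 0.07, and that of the 37 members was -0.99. Scaled by library totals without TMM, the median of all genes was 0.68, and mt-co1 (0.07), mt-atp6 (0.13), mt-cyb (0.14) and trnF (0.46), the gene of tRNA-Phe, then had fold changes above 0, although all 30 named members were still lower than the median gene, by 0.22 to 1.71. Only 13 members were called then, all lower, of which 11 were tRNA genes, 1 was 12S rRNA and 1 was a protein gene. Over the 16890 genes 8300 were called then, 8102 of them higher. Library totals include the members themselves, which held 64.2% of all counts. With TMM factors and library sizes taken without the mitochondrial genes, 13 protein genes, 1 rRNA gene and 18 tRNA genes fell and none rose. In that fit 4767 of the 16890 genes were called, 2810 of them higher. With 1 RUVg factor removed, 13 of the 30 named members turned to values above 0 and 0 of the 37 were called by edgeR (1 at an unadjusted p under 0.05). That factor lay 77.7% between the stages, and it took the calls over all genes from 4773 to 64.

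**Figure D2:**
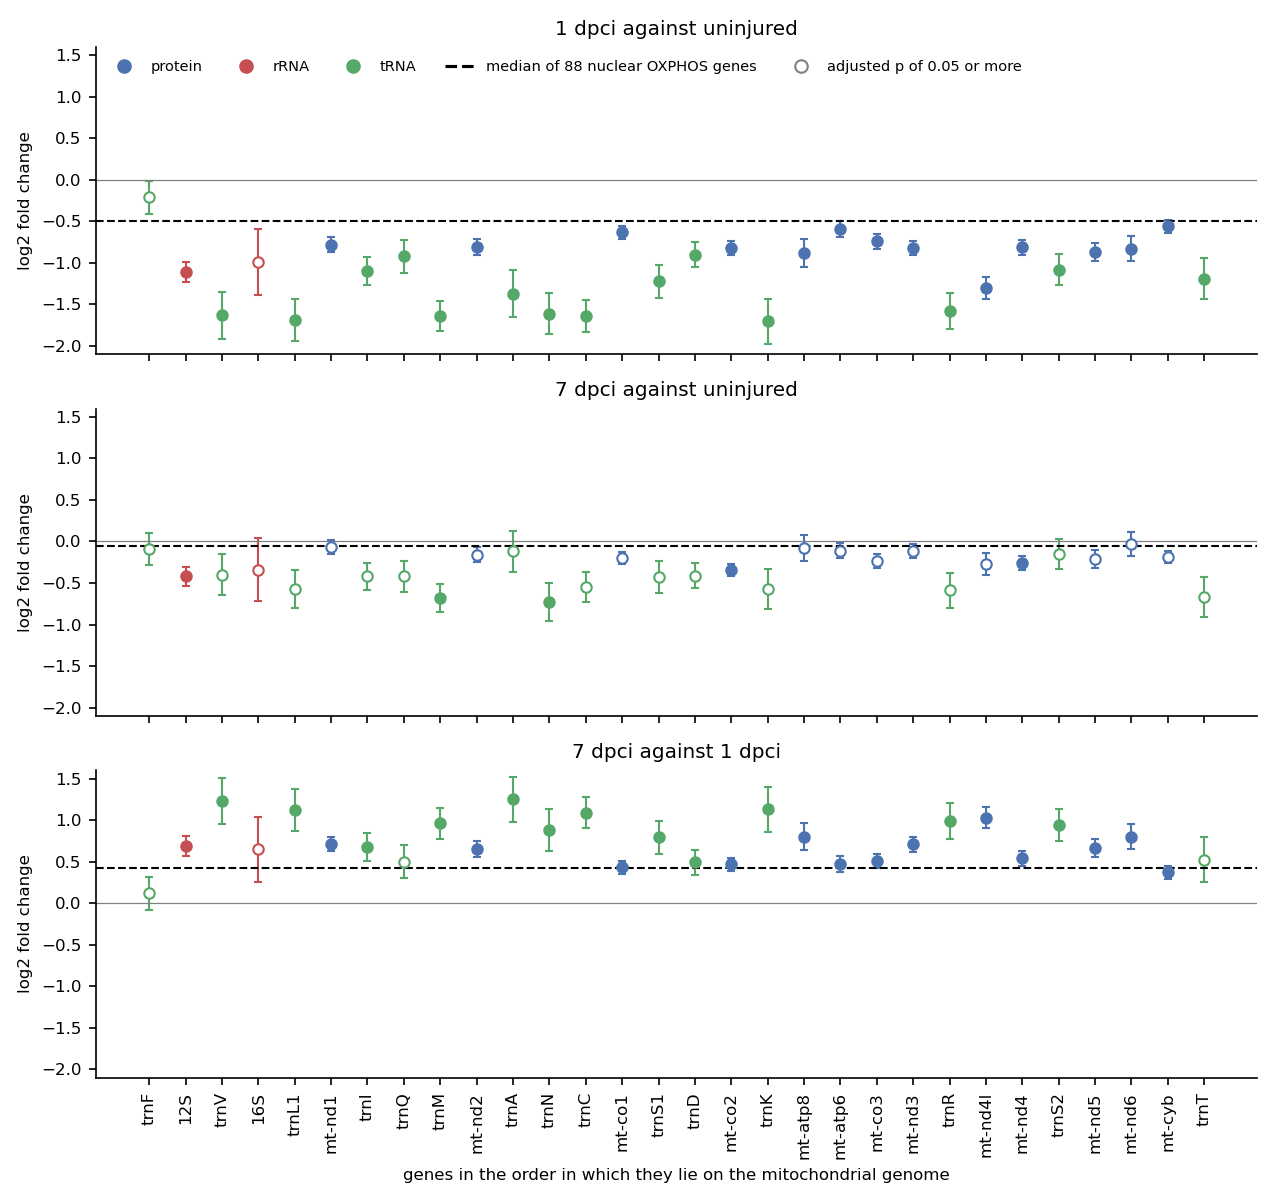
Log2 fold change with its standard error (y axis, edgeR quasi-likelihood fit after TMM, mean over 7 strains) of 30 mitochondrial genes in genome order (x axis). Panels show 1 dpci and 7 dpci against uninjured and 7 dpci against 1 dpci. Colours mark protein, rRNA and tRNA genes, open points have an adjusted p of 0.05 or more, and the dashed line is the median of 88 nuclear OXPHOS genes. The 13 protein genes were lower at 1 dpci with values from -1.30 to -0.56, but mt-co1, mt-atp6, mt-cyb and trnF had values above 0 when scaled by library totals, as did 13 of the 30 genes with 1 RUVg factor removed.

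Although the split of counts with the overlapping mt-nd4 is uncertain, mt-nd4l changed most of the complex I genes. Its TMM-scaled CPM was 73.8 in the lowest, 190.1 in the median and 438 in the highest uninjured fish and 39.8, 85.9 and 131 at 1 dpci, a log2 fold change of -1.30 (SE 0.13, adjusted p = 2.3e-11, edgeR). The stage ranges overlapped over all strains, but within each of the 7 strains every fish at 1 dpci lay below every uninjured fish. In WIK, for example, the uninjured fish had 207, 273 and 362 CPM and those at 1 dpci 53.6, 95.8 and 99.4, and in TL, the lowest strain, the values were 73.8, 104.4 and 117 against 39.8, 48.3 and 52.4. Gene mt-nd1, which encodes a core subunit of the membrane arm, had 1917, 3536 and 6886 CPM in the lowest, median and highest uninjured fish and 1277, 2074 and 4133 at 1 dpci (-0.78, SE 0.087, adjusted p = 1.7e-10, edgeR). The other complex I genes lay close to it, with log2 fold changes of -0.81 for mt-nd2, -0.82 for mt-nd3, -0.81 for mt-nd4, -0.87 for mt-nd5 and -0.83 for mt-nd6, although mt-nd6 was measured at only 13.2 to 194 CPM in uninjured fish.

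The smallest changes among the protein genes belonged to genes with high counts. Gene mt-cyb, the only mitochondrially encoded subunit of complex III, had 9092, 14130 and 24090 CPM in the lowest, median and highest uninjured fish and 6533, 9154 and 13960 at 1 dpci (-0.56, SE 0.075, adjusted p = 2.6e-08, edgeR). Gene mt-atp6 fell by 0.59 (SE 0.095), from a median of 14320 to 9396 CPM, and mt-co1, the catalytic core of complex IV, fell by 0.63 (SE 0.079), from 14990 to 9433 CPM. The copper-binding subunit mt-co2 fell by 0.82 (SE 0.079, adjusted p = 2.1e-12, edgeR), with 9418, 16350 and 25190 CPM in the lowest, median and highest uninjured fish and 5220, 9585 and 12320 at 1 dpci. Gene mt-co3 fell by 0.74 (SE 0.088) and mt-atp8 by 0.88 (SE 0.17).

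The rRNAs differed in what the test could call rather than in size. The 12S rRNA had 3068, 6474 and 11410 CPM in the lowest, median and highest uninjured fish and 1224, 2584 and 7008 at 1 dpci (-1.11, SE 0.12, adjusted p = 4e-11, edgeR). TU stood apart here, with 4522, 4960 and 5267 CPM uninjured and 6080 and 7008 at 1 dpci. For 16S rRNA (NC_002333.4) the log2 fold change was -0.99 with an SE of 0.40 (adjusted p = 0.054, edgeR), an error over 3 times that of 12S rRNA. Fits with other dispersion models called it at a like size, namely DESeq2 (-0.98, adjusted p = 6.2e-24) and limma with voom weights (-1.03, adjusted p = 1.9e-14).

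The tRNA genes had larger median changes than the protein genes (-1.29 over 22 genes, against -0.81 over 13), a difference that was not tested. Gene trnM (NC_002333.14, tRNA-Met, MT 4924 to 4992) went from 8.75, 31.2 and 77.2 CPM in the lowest, median and highest uninjured fish to 1.59, 9.65 and 31.8 at 1 dpci (-1.64, SE 0.18, adjusted p = 2.9e-10, edgeR). Gene trnC (NC_002333.18, tRNA-Cys, MT 6283 to 6354, minus strand) went from 11.3, 29.9 and 115 CPM to 2.12, 7.96 and 29.5, and trnK (NC_002333.2, tRNA-Lys, MT 8821 to 8893) fell by 1.70 (SE 0.27) from a median of only 8.36 CPM. The abundant trnD fell by 0.90 (SE 0.15, adjusted p = 5e-06, edgeR). An exception was trnF, which was not called (-0.21, SE 0.20, adjusted p = 0.54, edgeR), with 7.67, 41.2 and 162 CPM in the lowest, median and highest uninjured fish and 3.71, 25.4 and 154 at 1 dpci.

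Cell type markers moved at the same time. Of 10 cardiomyocyte markers 8 fell at 1 dpci (median -0.79), and their summed level was 23100, 31100 and 37090 TMM-scaled CPM in the lowest, median and highest uninjured fish and 13020, 19010 and 25990 at 1 dpci. In whole ventricles, fewer cardiomyocytes and less RNA per cardiomyocyte cannot be told apart. Scaled by library totals, where 8102 of the 16890 genes rose, 3 of the 10 fell and 2 rose (median -0.10). Markers of several other cell types rose, with 5 of 6 for neutrophils (summed CPM 0 to 35.8 uninjured, 4.05 to 60.4 at 1 dpci), 5 of 7 for macrophages (47.0 to 571 and 52.3 to 1314, with 2 others lower) and 7 of 10 for fibroblasts and epicardium (152 to 363 and 255 to 927, with 1 lower). Of 6 endothelial markers 1 rose (median 0.06, summed CPM 91.9 to 205 uninjured and 88.5 to 190.3 at 1 dpci). Of 8 erythrocyte markers 0 were called by edgeR (0 at an unadjusted p under 0.05), with sums of 1459 to 15620 and 1554 to 22180 CPM. The part of these cells in the changes of the mitochondrial genes was not tested. Without NA and TU 13 protein genes, 12S rRNA and 17 tRNA genes still fell, and without the 6 libraries with conflicting time labels the counts were the same. Over all genes 4253 of 16356 were called without NA and TU, 2481 of them higher. Without those 6 libraries 4454 of 16724 were called, 2527 of them higher.

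By 7 dpci most of the difference from uninjured ventricles was no longer called. Of the 37 genes 5 were lower and none was higher, against a background of 1.71% of all genes lower, 4.46% higher and 6.16% changed, and the members' median was -0.34 beside 0.03 for all genes. The 5 were mt-co2 (-0.34, SE 0.075, adjusted p = 0.0014, edgeR), mt-nd4 (-0.26, adjusted p = 0.049), 12S rRNA (-0.42, adjusted p = 0.01), trnM (-0.68, adjusted p = 0.0076) and trnN (NC_002333.13, tRNA-Asn, MT 6178 to 6250, minus strand, -0.73, adjusted p = 0.045). The count depended on single fish, being 3 without AB 7 dpci fish 27 and 9 without TL 7 dpci fish 44, and was 10 without NA and TU, 2 without the 6 libraries with conflicting time labels and 0 with library totals or 1 RUVg factor (3 and 2 at an unadjusted p under 0.05). Over all genes 1059 of 16356 were called without NA and TU and 758 of 16724 without those 6 libraries. With library totals 2156 of 16890 were called, and 636 with 1 RUVg factor. In the TMM-scaled fit 19 of the 37 members had an unadjusted p under 0.05. DESeq2 and limma with voom weights called both rRNA genes as lower, where 1198 and 1106 of all 16890 genes were called. Of the 5 edgeR calls, those of mt-co2, 12S rRNA and trnM held in all 61 fits that left out 1 fish. The call of trnN held in 36 of the 61 fits and that of mt-nd4 in 21. For mt-co2 the lowest, median and highest fish at 7 dpci had 7276, 12900 and 24250 CPM, a range that overlapped that of the uninjured fish. At the same stage 5 of 10 cardiomyocyte markers were lower than in uninjured ventricles (median -0.24), all 10 fibroblast and epicardium markers were higher (median 2.06, summed CPM 438 to 2143), and 3 of 7 macrophage markers were higher. Their part in the values of the mitochondrial genes was not tested.

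Between 1 and 7 dpci 27 of the 37 genes rose and none fell, where 10.5% of all genes rose, 12.4% fell and 22.9% changed, with a members' median of 0.69 beside -0.01 for all genes. The 27 were again all 13 protein genes and 12S rRNA, with 13 tRNA genes. Without NA and TU 24 of the 37 genes rose, where 1463 of all 16356 genes tested rose. This comparison shares the 1 dpci fish with the first, so the opposite directions are not independent of each other. Gene mt-nd4l rose by 1.03 (SE 0.13, adjusted p = 2.3e-08, edgeR) to 82.5, 176 and 344 CPM in the lowest, median and highest fish at 7 dpci, and mt-cyb rose by 0.37 (SE 0.075, adjusted p = 0.00013, edgeR) to 6800, 11410 and 24650 CPM. The 12S rRNA rose by 0.69 (SE 0.12) to a median of 4431 CPM, whereas 16S rRNA (0.65, SE 0.39, adjusted p = 0.28) and trnF (0.12, adjusted p = 0.86) were not called. The 2 rRNAs rose by a like amount, and DESeq2 and limma with voom weights called both as higher. In those fits 1918 and 2695 of all 16890 genes were called higher, so whether 16S rRNA was called depended on the fit. With library totals mt-co1 (-0.03), mt-cyb (-0.08) and trnF (-0.29) had values below 0, although all 30 named members stayed above the median of all genes, which was -0.42 then, and with 1 RUVg factor 15 of the 30 turned below 0 and 0 were called by edgeR (2 at an unadjusted p under 0.05). Of the cardiomyocyte markers 6 of 10 rose from 1 to 7 dpci (median 0.52), and their summed level at 7 dpci was 16530, 25910 and 33660 CPM in the lowest, median and highest fish.

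The next question was whether the mitochondrial genes moved apart from the nuclear genes of the same complexes. A list of 91 nuclear OXPHOS genes was used, of which 88 were tested. At 1 dpci 77 of them fell and 2 rose, with a median of -0.50. Scaled by library totals, however, 2 fell and 39 rose, where 8102 of all 16890 genes rose. Their median was then 0.20, which lay below that of all genes (0.68). With 1 RUVg factor 0 of them were called by edgeR (0 at an unadjusted p under 0.05). At 7 dpci against uninjured 5 fell and 2 rose, or 7.95% called beside a background of 6.16%, with a median of -0.05. From 1 to 7 dpci 77 rose and 1 fell, with a median of 0.42, which was -0.03 with library totals. The medians of the 13 mitochondrial protein genes beside these were -0.81, -0.19 and 0.65 (-0.12, 0.06 and 0.20 with library totals), and the difference between the lists was not tested gene by gene.

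In the TMM-scaled fit, the nuclear genes called at 1 dpci came from every complex, with 33 of 36 complex I genes, 3 of 5 of complex II, 9 of 9 of complex III, 17 of 18 of complex IV and 17 of 19 of complex V called, and medians between -0.54 and -0.43. Of the pair of genes with the highest expression under each complex of the list, ndufa4l fell by 0.63 (SE 0.081, adjusted p = 8.2e-09, edgeR) and ndufb7 by 0.83 (SE 0.094, adjusted p = 2.4e-10) under complex I. The list placed ndufa4l in complex I, an assignment that was not checked, and the complex I values include it. In complex III uqcrq fell by 0.48 and the iron-sulfur protein gene uqcrfs1 by 0.47 (SE 0.084, adjusted p = 1.2e-05). In complex IV the heart and muscle isoform gene cox6a2 fell by 0.70 (SE 0.089, adjusted p = 6.3e-09) and cox7c by 0.45, and in complex V atp5f1b, the catalytic beta subunit, fell by 0.47 (SE 0.088, adjusted p = 2.7e-05) and atp5l by 0.50. Complex II, which has no mitochondrially encoded subunit, was represented by the flavoprotein gene sdha (-0.54, SE 0.098, adjusted p = 1.5e-05) and by sdhc (-0.21, SE 0.12, adjusted p = 0.2). The exceptions that rose were cox6a1 (1.4, SE 0.12, adjusted p = 6.2e-14), the isoform of cox6a2 outside muscle, and cox8a (0.32, adjusted p = 0.01), both chosen for mention after their values were seen.

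As shares of nuclear counts, both sets were set side by side in each fish. The mitochondrial protein counts came to 20.8%, 25.8% and 43.9% of the nuclear counts in the lowest, median and highest uninjured fish, to 14.0%, 19.0% and 24.7% at 1 dpci and to 16.7%, 23.3% and 43.2% at 7 dpci. The 91 nuclear OXPHOS genes came to 6.16%, 8.14% and 10.2%, then 5.19%, 6.48% and 8.34%, then 5.74%, 8.32% and 10.7%. At 1 dpci the mitochondrial measure was lower without overlap in every strain except NA, and the nuclear one in AB, KCL, TU and WIK.

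The ratio of the 2 measures overlapped between stages in most strains. A ventricle had 2.45, 3.07 and 4.87 mitochondrial protein counts per nuclear OXPHOS count in the lowest, median and highest uninjured fish, 2.201, 2.95 and 3.88 at 1 dpci and 2.15, 2.93 and 4.15 at 7 dpci. Averaged over strains the ratio changed by -0.18 on the log2 scale at 1 dpci (SD between single fish of a group 0.18, n = 21 and 19, with no test), and only TU was lower without overlap. At 7 dpci against uninjured TU and WIK were lower and NA was higher without overlap. When the genes of each set were averaged on the log scale instead of summed, which gives low genes such as mt-nd4l the same weight as mt-co3, the change at 1 dpci was -0.34.

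**Figure D3:**
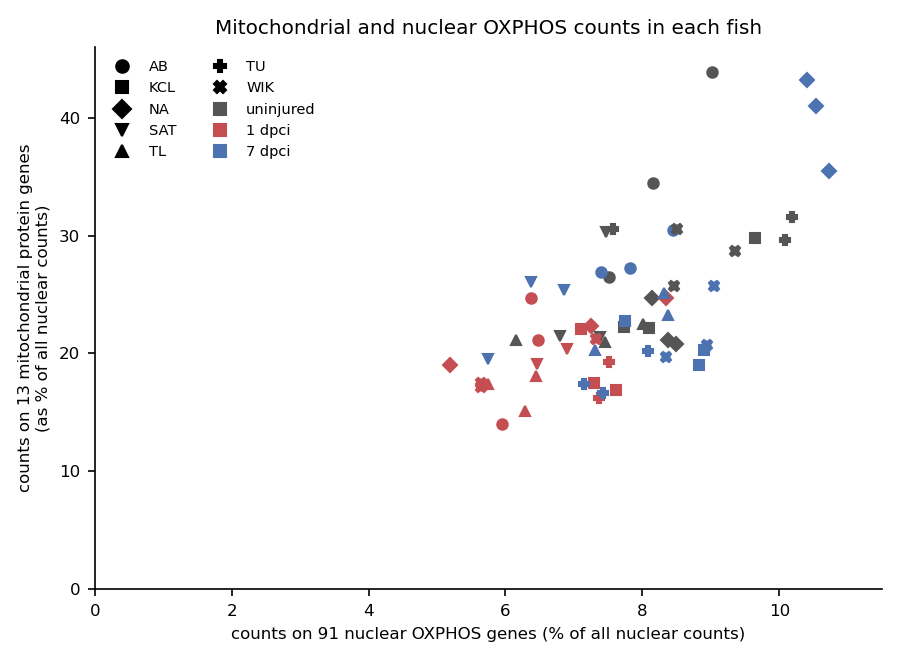
Counts of the 13 mitochondrial protein genes as percent of nuclear counts (y axis) against counts of 91 nuclear OXPHOS genes as percent of nuclear counts (x axis), 1 point per fish, by strain and stage, on linear axes. Fish at 1 dpci lie toward the lower left, with 14.0% to 24.7% on the y axis, and the NA fish at 7 dpci at the upper right, with 35.5% to 43.2%. The highest uninjured fish lies above these NA fish on the y axis.

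Within complexes, the ratio of mitochondrial to nuclear counts had group means between 1.96 and 3.96 for complex I, between 4.67 and 8.97 for complex III and between 4.07 and 7.17 for complex IV. For complex V it lay between 0.795 and 2.83, and the highest value belonged to NA at 7 dpci, with an SD of 1.31 over 3 fish. These ratios compare sets of different numbers of genes and show differences between groups only.

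A list of 56 genes of mitochondrial DNA upkeep, transcription and RNA processing did not move as a block. The list is mixed, as it also holds regulators of transcription such as ppargc1a and nrf1 and protease genes such as lonp1. Gene top1mt has separate entries in it. At 1 dpci 11 fell and 4 rose, or 26.8% called beside a background of 28.3%, and the median of the list was -0.09. More of the called genes of the list fell than rose, whereas over all genes 12.1% fell and 16.2% rose. Scaled by library totals 1 of the 56 fell and 26 rose, where 8102 of all 16890 genes rose. The mitochondrial DNA helicase gene twnk fell by 1.76 (SE 0.28, adjusted p = 1.1e-06, edgeR), the coactivator gene ppargc1a by 1.14 (adjusted p = 0.0066) and fastkd3, whose product acts on mitochondrial mRNAs in mammals, by 0.89 (adjusted p = 0.0012). Those with the largest rises were pprc1 (2.03, adjusted p = 1.1e-06), a relative of ppargc1a, primpol (1.94, adjusted p = 0.043), which encodes a primase and polymerase, and trmu (1.74, adjusted p = 0.026), which encodes a tRNA-modifying enzyme. Over all genes 10.5% rose and 12.4% fell from 1 to 7 dpci. Of the 56 genes of the list 9 rose and 4 fell, or 23.2% called beside a background of 22.9%. Those with the largest changes were mrm1 (1.59, SE 0.58, adjusted p = 0.042, edgeR), ppargc1a (1.13) and twnk (1.08) among the genes that rose, and pprc1 (-1.65), trmu (-1.63) and trmt61b (-1.58) among those that fell. At 7 dpci against uninjured 4 of the 56 were called, or 7.14% beside a background of 6.16% (1.71% lower and 4.46% higher). They were trmt61b (-1.42), clpxb (-0.74), primpol (2.45) and tfb2m (-0.39), a factor of the mitochondrial transcription machinery. Levels were low for trmu (mean log2 CPM -0.49), mrm1 (-0.43), primpol (-0.18) and trmt61b (0.54), so their large changes rest on few counts.

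The strains were then compared with each other at each stage. Of the 37 genes 21 differed among uninjured strains, 12 at 1 dpci and 23 at 7 dpci, where 13.1%, 11.4% and 13.5% of all genes did. Without NA and TU these counts were 17, 10 and 9. At 1 dpci 19 genes were called with library totals and 24 with DESeq2. The shares of all genes called among strains in these other fits are not given here, so these counts have no background. Of the 30 named genes 8 differed at all 3 stages, 13 at 2 stages, 4 at 1 stage and 5 at none. How many of all genes differed at several stages, with or without NA and TU, is not given here. These counts of named genes therefore have no background. Without NA and TU 4 genes still differed at all 3 stages, namely trnF (adjusted p = 4.9e-05 uninjured, 6.9e-05 at 1 dpci and 4.9e-07 at 7 dpci, edgeR), mt-nd1 (0.021, 0.016 and 0.048), mt-atp6 (0.016, 0.011 and 0.038) and mt-nd6 (3.7e-06, 0.0095 and 0.017). The change with stage differed among strains for 14 of the 37 genes (strain by stage interaction, 3.77% of all genes called), but for 0 without NA and TU (6 at an unadjusted p under 0.05, edgeR). The share of all genes called for the interaction without NA and TU is not given here, and that fit has fewer libraries. The fish of different stages are different animals, so each stage is a separate set of fish of a strain.

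These differences showed best as shares of the mitochondrial protein counts, which leaves out the overall level. Counts of trnF came to 0.103% to 0.474% of the protein counts in all 8 SAT fish, but to 0.00771% to 0.0413% in the 9 TL fish and to 0.00621% to 0.0284% in the 9 WIK fish, without overlap. In CPM the uninjured SAT fish had 86.5, 153 and 162, and the uninjured TL fish 7.67, 8.59 and 13.7. Gene mt-co1 made up 8.84% to 13.5% of the protein counts in SAT and 17.2% to 19.4% in TL, again without overlap at any stage. Gene mt-nd6 was low in TL at every stage (0.0150% to 0.0322%) and highest in uninjured WIK (0.0927%, 0.122% and 0.178%). In CPM the uninjured WIK fish had 107, 116 and 194 and the WIK fish at 1 dpci 19.6, 20.3 and 20.5.

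**Figure D4:**
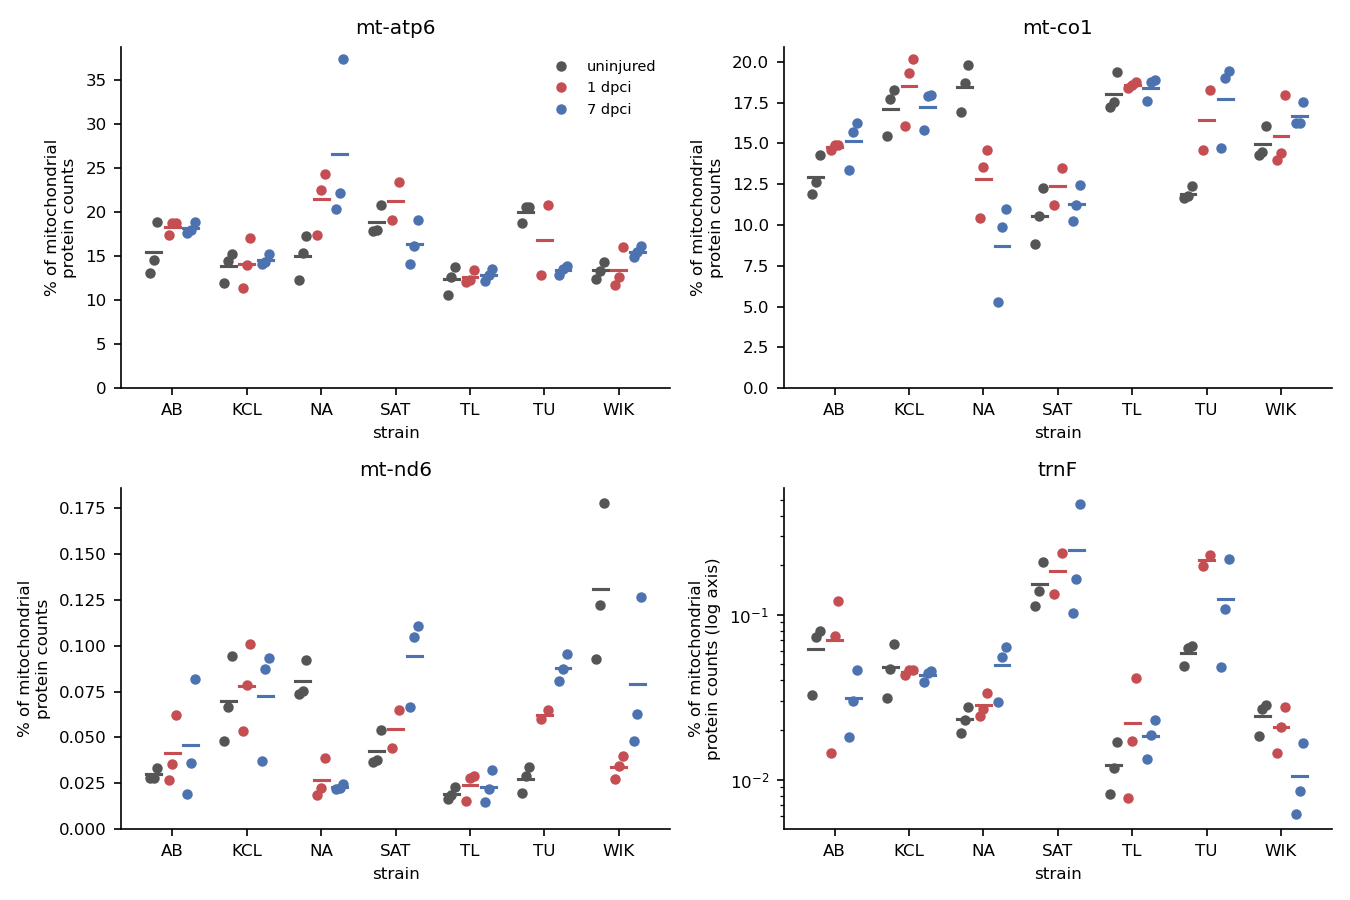
Counts of mt-atp6, mt-co1, mt-nd6 and trnF as percent of the mitochondrial protein counts, by strain and stage, where each point is 1 fish and the trnF axis is logarithmic. SAT lies above TL and WIK for trnF and below TL for mt-co1, and 1 NA fish at 7 dpci reaches 37.4% for mt-atp6.

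Another strain difference was seen for trnQ (NC_002333.6, tRNA-Gln, MT 4852 to 4922, minus strand). It had 41.3, 45.4 and 50.9 CPM in uninjured WIK and 29.9, 32.2 and 55.2 in uninjured KCL, but 3.27, 4.63 and 5.94 in uninjured TU and 3.75, 5.67 and 6.59 in uninjured SAT (adjusted p among 7 strains 8.6e-08, edgeR). It overlaps the gene of tRNA-Ile on the other strand by a few bases, and sequence differences between strains can change where reads align, which was not tested for this or the other genes.

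The 16S rRNA count per mitochondrial protein count does not depend on the scaling. Its median was 8.16 in uninjured fish, 7.13 at 1 dpci and 7.61 at 7 dpci. TL stayed between 6.96 and 8.67 over all 9 fish. NA had 9.37, 10.8 and 11.7 uninjured, then 2.51, 2.89 and 3.85 at 1 dpci and 1.67, 2.79 and 3.56 at 7 dpci. TU had 2.97, 3.43 and 3.95 uninjured and 9.51, 10.9 and 12.8 at 7 dpci, and its 2 fish at 1 dpci were far apart, at 4.30 (fish 48) and 9.74 (fish 54). WIK at 1 dpci was split as well, with 3.83 (fish 57), 3.97 (fish 55, a library with conflicting time labels) and 11.1 (fish 56).

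**Figure D5:**
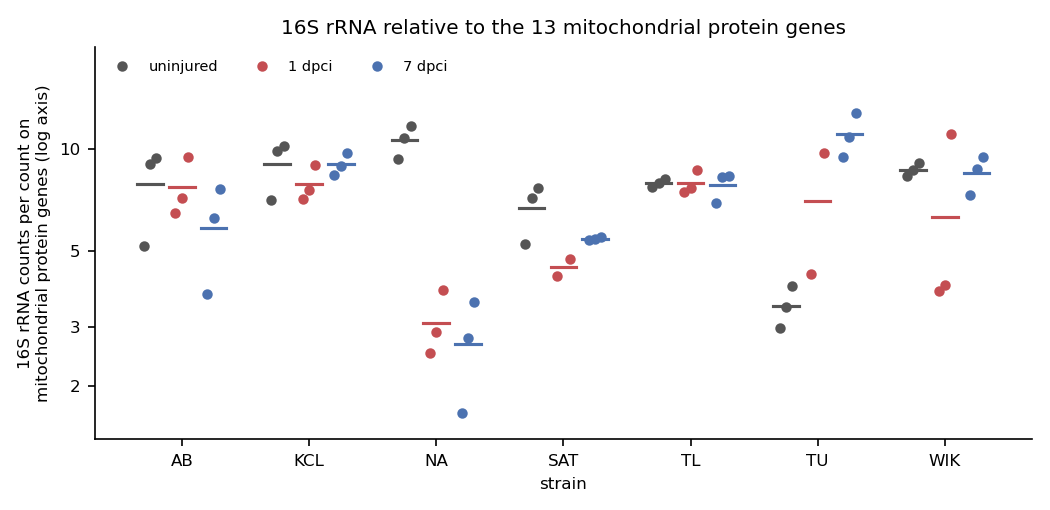
Counts of 16S rRNA per count of the 13 mitochondrial protein genes (y axis, logarithmic) in each fish, by strain and stage. TL stays between 6.96 and 8.67, whereas NA and TU move in opposite directions between uninjured and 7 dpci, and TU and WIK fish at 1 dpci are split.

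The ratio of 16S to 12S rRNA had group means from 60.04 in SAT at 7 dpci to 259.8 in TL at 1 dpci, and its ranges at 1 dpci and uninjured overlapped in all 7 strains. Counts of 12S rRNA relative to protein counts were lower at 1 dpci without overlap in KCL, NA and WIK and higher in TU. The tRNA genes other than trnD were likewise lower in KCL, NA and WIK and higher in TU, and in WIK their mean was 0.577% of protein counts in uninjured fish and 0.264% at 1 dpci. In AB, KCL, NA and WIK the share of mt-nd4l within the protein counts was lower at 1 dpci without overlap. The split of counts between mt-nd4l and the overlapping mt-nd4 is uncertain. Whether mt-nd4l itself differed from the other protein genes was not tested.

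Last, NA was compared with SAT at 7 dpci, the strains that the study set against each other. The strain correlations above do not show at which stage labels of NA and TU might be mixed up. The NA label at 7 dpci therefore carries the same limit, which was not tested. Of the 37 genes 10 were higher in NA and none lower, where 2.67% of all genes were higher, 1.28% were lower and 3.95% changed. All 10 were protein genes. With library totals 4 were called, all protein genes and higher in NA, where 576 of all 16890 genes were called, 194 of them higher. Without the low-count filter 11 were called higher and 4 lower, the latter being 1 protein gene and 3 tRNA genes. Of all 24170 genes in that fit 972 were called, 587 of them higher. The medians were 0.91 for the protein and -0.52 for the tRNA genes, beside -0.03 for all genes. The largest difference was in mt-atp6, with 30670, 36360 and 62440 CPM in the 3 NA fish and 10910, 12610 and 13070 in the 3 SAT fish (1.82, SE 0.25, adjusted p = 2.5e-06, edgeR). The NA fish with the highest value (fish 33) had 37.4% of its mitochondrial protein counts in mt-atp6, where the other NA fish had 20.3% and 22.2%. Genes mt-cyb (1.15, SE 0.19, adjusted p = 0.0001), mt-nd4 (1.09, SE 0.22, adjusted p = 0.0016) and mt-nd3 (1.02, SE 0.23, adjusted p = 0.0032) followed. The protein genes that were not called were mt-nd4l (0.05), mt-nd5 (0.61) and mt-nd6 (-0.92, SE 0.36, adjusted p = 0.17), and 16S rRNA, with a difference of 0.04, had an SE of 0.99, too wide to show whether it differed.

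Of the 88 nuclear OXPHOS genes 70 were also higher in NA, with a median of 1.05, and their share of nuclear counts was 10.4%, 10.5% and 10.7% in NA and 5.74%, 6.37% and 6.86% in SAT. The mitochondrial protein counts came to 35.5%, 41% and 43.2% of nuclear counts in NA and to 19.5%, 25.4% and 26.1% in SAT. The ratio between both had means of 3.78 (SD 0.430, n = 3) in NA and 3.73 in SAT. Without SAT fish 38, a library with conflicting time labels, the difference was called for only 3 mitochondrial genes (mt-atp6, mt-nd4 and mt-cyb) and for 45 nuclear ones. That fit has fewer SAT fish, and its count over all genes is not given here. Without the 6 libraries with conflicting time labels, calls over all genes went from 667 to 309. A general loss of calls was thus not told apart from a dependence on fish 38. The calls lost without it were those of mt-nd1, mt-nd2, mt-nd3, mt-co1, mt-co2, mt-co3 and mt-atp8. Some of these calls were also lost without another single fish (mt-nd2 and mt-atp8 without NA fish 33 or SAT fish 40, mt-co1 without NA fish 31 or 34, mt-co2 without NA fish 31, and mt-co3 without any of NA fish 31 and 34 and SAT fish 40). The summed cardiomyocyte markers were 24900, 30450 and 33660 CPM in NA and 16530, 23130 and 25370 in SAT, where 3 of 10 markers were higher in NA, and their part in the difference was not tested.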

How the data were processed

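The authors made QuantSeq 3′ FWD libraries, trimmed reads with Trim Galore 0.6.4 and aligned and counted them with STAR 2.7.6a against GRCz11 (versions as in the submitters' processing notes, with bcl2fastq 2.20.0). The deposited counts are raw counts per gene. Of the second deposited table, which holds log2 values made by the authors, only the annotation was used. It gave the gene type (protein, rRNA or tRNA), chromosome, start, end and strand. The 37 members matched the mitochondrial genes of RefSeq by start and end.

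The tests used edgeR 4.0.16 (R 4.3.3) on the counts of 61 libraries, with TMM, a trended dispersion, the quasi-likelihood F-test and 1 mean for each of 21 groups, after removing genes that reached 1 CPM in no library. Genes were called at an adjusted p (Benjamini-Hochberg) below 0.05. The steps were tested on simulated data. Shares and ratios are descriptions with no test. Alternatives used limma 3.58.1 (voom, added after the data had been seen) and DESeq2 1.42.0, other scalings (library totals, 1 RUVg factor), other filters and fewer libraries. The study's own differential tests used DESeq2 with RUVg weights in the model. Here the RUVg factor entered the edgeR fit, and the DESeq2 fit had no such factor. Tables were made with pandas 2.3.3 and numpy 2.4.6 and plots with matplotlib 3.10.9, under Python 3.11.15.

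The named genes were all mitochondrial protein and rRNA genes, tRNA genes averaging at least 10 counts, the pair of nuclear OXPHOS genes with the highest expression in each complex, and up to 3 called genes of the mtDNA expression list with the largest change in each direction. Members, lists and tests were chosen with earlier results of these data known. The p-values set differences between group means against the spread between single fish, estimated with a dispersion trend shared over genes. Low counts limit the tRNA genes most, at total counts of 2943684 to 5538019 per library.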

Additional observations from a re-analysis of the deposited data

Results flagged for a closer look

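The change with stage differed among the strains for 13 of the 30 named mitochondrial genes, by the strain by stage interaction of the edgeR quasi-likelihood fit (Benjamini-Hochberg adjusted p under 0.05 over 16890 genes, of which 3.77% were called). The protein genes were mt-atp6 (adjusted p = 3.8e-05), mt-cyb (0.00035), mt-nd6 (0.0034), mt-co2 (0.0046), mt-nd2 (0.0087), mt-nd1 (0.022) and mt-nd4 (0.032). The others were 12S rRNA (NC_002333.17, 0.0029), trnC (NC_002333.18, 0.0046), trnM (NC_002333.14, 0.0093), trnF (NC_002333.23, 0.02), trnQ (NC_002333.6, 0.024) and trnS1 (NC_002333.9, 0.026). Among all 37 members 14 were called, the further one being the gene of tRNA-Tyr, which averaged under 10 counts. For mt-atp6, the fish of NA had 10090, 13830 and 14320 TMM-scaled CPM uninjured and 30670, 36360 and 62440 at 7 dpci, while those of TU had 22440, 23010 and 25900 uninjured and 8303, 8363 and 10430 at 7 dpci. Without NA and TU, whose uninjured fish lay nearest to the other strain, the interaction was called for 0 members by edgeR (6 at an unadjusted p under 0.05). That fit has fewer strains and libraries, and its share of all genes called is not given here. The differences among the 7 strains in the change with stage cannot be told apart from a mix-up of NA and TU. Of the 88 nuclear OXPHOS genes 12 were called, and 0 without NA and TU (11 at an unadjusted p under 0.05).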

How the results depend on the processing

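With library totals in place of TMM, 13, 0 and 11 mitochondrial genes were called for 1 dpci and 7 dpci against uninjured and 7 dpci against 1 dpci (main 32, 5 and 27), 19 among strains at 1 dpci (12) and 4 for NA against SAT (10). The nuclear OXPHOS counts were then 41, 17 and 6 (79, 7 and 78), 54 among uninjured strains (15), 25 at 1 dpci (11), 34 for the interaction (12) and 36 for NA against SAT (70). Over all genes 8300 were called at 1 dpci, 8102 of them higher, against 4773 with 2733 higher. At 1 dpci mt-co1 was 0.07, mt-atp6 0.13 and mt-cyb 0.14 then, and from 1 to 7 dpci mt-co1 was -0.03 and mt-cyb -0.08. With 1 RUVg factor 0, 0 and 0 mitochondrial and 0, 3 and 0 nuclear genes were called. At 1 dpci the values that turned were 0.16 for 12S rRNA (NC_002333.17), 0.38 for trnV (NC_002333.10), 0.40 for trnQ (NC_002333.6), 0.27 for trnA (NC_002333.5), 0.26 for trnS1 (NC_002333.9), 0.54 for trnD (NC_002333.24), 0.20 for mt-co1, 0.08 for mt-atp8, 0.05 for mt-co3, 0.09 for mt-nd4, 0.30 for mt-nd5, 0.02 for mt-nd6 and 0.06 for mt-cyb. From 1 to 7 dpci they were -0.30 for 12S rRNA, -0.32 for trnV, -0.28 for trnM (NC_002333.14), -0.01 for trnA, -0.11 for trnN (NC_002333.13), -0.36 for trnS1, -0.63 for trnD, -0.01 for trnK (NC_002333.2), -0.17 for trnR (NC_002333.3), -0.23 for mt-co1, -0.10 for mt-co2, -0.11 for mt-co3, -0.16 for mt-nd4, -0.25 for mt-nd5 and -0.12 for mt-cyb. The factor took up the stages, with means of -0.102, 0.164 and -0.0466.

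Without the low-count filter 15 mitochondrial genes were called at 7 dpci against uninjured, 33, 26 and 29 among uninjured strains, among strains at 1 dpci and for the interaction (main 21, 12 and 14), and 21 nuclear genes for the interaction. Without the 6 libraries with conflicting time labels the mitochondrial counts were 2 at 7 dpci and 3 for NA against SAT, and the nuclear ones 41 among strains at 7 dpci (68), 4 for the interaction and 40 for NA against SAT. Without NA and TU they were 10 at 7 dpci against uninjured, 9 among strains at 7 dpci (23) and 0 for the interaction, and for nuclear genes 6 among strains at 1 dpci, 14 at 7 dpci and 0 for the interaction. With only the libraries of the stages compared they were 10 at 7 dpci against uninjured, and 3 nuclear genes among strains at 1 dpci. Requiring a change of more than 2-fold left 17, 0 and 7 mitochondrial and 1, 0 and 1 nuclear genes over the stages, and 5 mitochondrial genes for NA against SAT. DESeq2 gave 24 mitochondrial genes among strains at 1 dpci and 22 for the interaction, and 11, 24, 34 and 35 nuclear genes at 7 dpci against uninjured, among uninjured strains, among strains at 1 dpci and for the interaction. Limma with voom weights gave 25 and 23 nuclear genes for the last 2. The protein share changed by -0.38 at 1 dpci with counts outside the rRNA genes as denominator (main 0.00). At 7 dpci against uninjured, 1269 of all 24170 genes were called without the filter and 758 of 16724 without the 6 libraries. The calls were 1059 of 16356 without NA and TU, 1151 of 15592 with only the stages compared and 1198 of 16890 with DESeq2. For NA against SAT 309 of 16724 were called without the 6 libraries. Shares of all genes among strains and for the interaction are not given here for these fits. The cause of the differences between fits was not tested.

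Leaving out 1 fish at a time, the mitochondrial counts ran from 31 to 33, 3 to 9 and 26 to 30 over the stages, 19 to 24, 9 (without TL 1 dpci fish 43) to 18 (without SAT 1 dpci fish 37) and 17 to 25 among strains, 11 to 20 for the interaction and 3 (without SAT 7 dpci fish 38) to 10 for NA against SAT. The nuclear counts ran from 77 to 80, 5 to 8 and 73 to 80, from 8 (without NA uninjured fish 1) to 18, 7 (without TL 1 dpci fish 43) to 22 (without NA 1 dpci fish 28) and 40 (without SAT 7 dpci fish 38) to 70, from 6 (without TU uninjured fish 1) to 14 and from 45 to 73. Share changes ran from -0.36 to -0.29, -0.12 to -0.08 and 0.19 to 0.26 for rRNA, from -0.05 to 0.05, 0.03 to 0.09 and 0.01 to 0.11 for protein genes, from -0.47 to -0.14, -0.19 to -0.07 and 0.00 to 0.33 for tRNA genes, and from -0.20 to -0.15, -0.12 to -0.09 and 0.04 to 0.09 for the ratio to nuclear OXPHOS genes. A replicate block among the uninjured fish gave 24 mitochondrial and 4 nuclear genes (main 21 and 15), but fish with the same number did not deviate together (median r 0.0119 over 33 pairs of different strains, against 0.00167 over 156 pairs with different numbers). Shares of all genes called in the fits that left out 1 fish are not given here. Depth limits the 7 tRNA genes under 10 counts.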
